A study of Mus musculus with 21 samples.

Results

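Connexins are the proteins that form gap junctions, and 4 of their genes, *Gja1*, *Gjc1*, *Gjb2* and *Gjb5*, were followed in RNA-seq libraries of mouse embryonic fibroblasts (MEFs). The 4 genes were found by symbol among the 24454 genes of the deposited table, and all 4 passed the filter on low counts that left 13719 genes for testing. They were selected on their levels in all 7 groups of these libraries, so their levels and fold changes are given as a description without a test. Levels are in CPM, counts scaled to library size by TMM. TPM, which also correct for transcript length, were used where levels of different genes were compared or summed, and correlations used log2 CPM.

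A ring of connexin subunits, the connexon, docks with that of a neighbouring cell, and the resulting channel passes ions and small metabolites directly between the cytoplasms. The alpha connexin encoded by *Gja1* is the main gap junction protein of fibroblasts, whereas the beta connexins are best known from epithelia such as skin and the cochlea. The subunit makeup of a channel sets its permeability and gating, and an undocked connexon can open to the outside, as do channels of the related pannexins.

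The libraries came from *Rtel1* F/F MEFs, from *Rtel1* F/F MEFs carrying a pBabe vector for the RTEL1 mutant C1252A/C1255A (CA cells below) and from *Terf1* F/F MEFs, each infected with a control adenovirus (Ad-GFP, +GFP) or one that delivers Cre (Ad-Cre, +Cre). RTEL1 is a DNA helicase that acts on G-quadruplexes (G4s) and telomere loops, and *Terf1* encodes the shelterin subunit TRF1. A further group of *Rtel1* F/F cells received the GFP virus and then 10 µM TMPyP4, a porphyrin that binds G4s, for 48 h. RNA of the *Rtel1* F/F and CA cells was taken 96 h after infection, and the time is not given for *Terf1* F/F cells. CA cells carried the mutant vector under both viruses, so their +GFP cells held the mutant together with the endogenous gene. Each of the 7 groups had 3 libraries, named as biological replicates with no word on separate cultures, so errors and p-values measure the spread between these libraries, part of which may be technical. Total counts ran from 32069888 in TMPyP4 replicate 1 to 51938593 in CA +Cre replicate 1, and 3 counts corresponded to between 0.0588 and 0.0951 CPM.

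The targeted genes were read first. *Rtel1* stood at 66.2, 59.1 and 60.2 CPM in *Rtel1* F/F +GFP libraries and at 29.9, 31.9 and 26.8 CPM after Cre. With TMPyP4 it was at 66.3, 79.0 and 71.0 CPM. In CA cells, where reads of the vector and of the endogenous gene cannot be told apart, *Rtel1* was at 338, 328.5 and 331 CPM before and 283, 253 and 257 CPM after Cre. *Terf1* had 1204, 1288 and 1220 counts in *Terf1* F/F +GFP libraries and 5, 2 and 1 counts after Cre. The targeted gene thus fell with Cre in the *Rtel1* F/F and *Terf1* F/F lines, and the effect of Cre is called deletion there after the design, although *Rtel1* transcript remained, while in CA cells its deletion cannot be read from these counts.

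*Gja1*, on chromosome 10 (GRCm38, chr10:56377300-56390419), had the highest TPM of the connexins in every library. It measured 239.5, 200.6 and 203.5 CPM in *Rtel1* F/F +GFP cells, 236.9, 239.4 and 215.4 CPM after Cre and 231.8, 213.2 and 205.8 CPM with TMPyP4. These 3 groups overlapped one another. In CA +GFP libraries it was at 344.3, 342.5 and 334.7 CPM, and in CA +Cre libraries, all 3 lower, at 268.8, 272.9 and 264.3 CPM. *Terf1* F/F +GFP libraries, at 276.0, 268.2 and 260.1 CPM, overlapped +Cre libraries at 276.5, 262.2 and 268.4 CPM. The fitted log2 fold change was 0.10 ± 0.067 (SE, 3 libraries a group) after *Rtel1* deletion and 0.016 ± 0.067 with TMPyP4. It was −0.34 ± 0.067 for Cre in CA cells and 0.005 ± 0.067 for Cre in *Terf1* F/F cells. Between the +GFP groups of CA and *Rtel1* F/F cells it was 0.67 ± 0.0672. In the order of the groups, CA +GFP stood alone at the top with 340.5 ± 5.13 CPM (mean ± SD, n = 3). CA +Cre and both *Terf1* F/F groups followed with overlapping values and means of 268.7, 268.1 and 269 CPM, and the 3 *Rtel1* F/F groups, also overlapping among themselves, lay below them.

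*Gjc1* (chr11:102799477-102819686) encodes a gamma connexin of low conductance, best known from the heart's conduction system and smooth muscle. Its levels were 66.1, 70.4 and 67.2 CPM in *Rtel1* F/F +GFP cells, 50.6, 67.9 and 58.5 CPM after Cre and 58.0, 69.3 and 60.3 CPM with TMPyP4. In CPM both treated groups reached into the range of the control. In TPM neither did, with at most 65.16 TPM after Cre and 66.65 TPM with TMPyP4 against at least 70.06 TPM in the controls. In CA +GFP libraries the values were 55.2, 64.2 and 62.5 CPM, again overlapping those of CA +Cre at 50.4, 60.3 and 55.6 CPM, although the +Cre library was lower in each of the 3 pairs with the same replicate number. *Terf1* F/F cells were at 51.7, 57.7 and 60.6 CPM before Cre and at 45.6, 49.4 and 43.1 CPM after it, and here all 3 +Cre libraries were lower. The log2 fold change was −0.20 ± 0.102 (SE) after *Rtel1* deletion, −0.12 ± 0.102 with TMPyP4, −0.13 ± 0.102 in CA cells and −0.30 ± 0.102 after *Terf1* deletion. Between CA +GFP and *Rtel1* F/F +GFP cells it was −0.16 ± 0.102, and −0.068 without CA +GFP replicate 1. *Gjc1* varied little between groups, from a mean of 46.0 ± 3.21 CPM in *Terf1* F/F +Cre to 67.9 ± 2.24 CPM in *Rtel1* F/F +GFP cells. Of neighbours in the order of group means, *Terf1* F/F +Cre alone did not overlap the next group, CA +Cre.

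*Gjb2* (chr14:57098602-57104702) encodes a beta connexin of the cochlea, liver and skin whose loss causes deafness. In *Rtel1* F/F +GFP cells it was at 21.4 CPM in replicate 1 and at 6.54 and 8.17 CPM in replicates 2 and 3. After Cre it measured 41.4, 55.9 and 47.1 CPM, and with TMPyP4 75.2, 89.5 and 84.4 CPM. All 6 libraries given Cre or the ligand were thus higher than all 3 controls, and every TMPyP4 library was higher than every +Cre library. In CA cells the +GFP level was 86.2, 111.6 and 91.8 CPM, and +Cre libraries lay below it at 50.8, 59.1 and 56.0 CPM, without overlap. In *Terf1* F/F cells 51.2, 57.3 and 46.2 CPM in +GFP overlapped 38.7, 37.5 and 56.3 CPM in +Cre libraries. The log2 fold change was 2.00 ± 0.312 (SE) for *Rtel1* deletion, a 4.01-fold higher level, and 2.79 ± 0.319 for TMPyP4, a 6.92-fold higher level. It was −0.80 ± 0.296 for Cre in CA cells and −0.225 ± 0.296 for Cre in *Terf1* F/F cells. Both increases share the *Rtel1* F/F +GFP libraries, of which replicate 1 lay apart. Without it the log2 fold changes were 2.71 and 3.50, each over 1.5 times as large on the linear scale.

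The low level of *Gjb2* was found in *Rtel1* F/F +GFP libraries and in no other group. Ordered by mean, CA +GFP (96.5 ± 13.4 CPM) and TMPyP4 (83.1 ± 7.27 CPM) overlapped at the top. Means of 55.3 ± 4.18 CPM in CA +Cre, 51.6 ± 5.54 CPM in *Terf1* F/F +GFP, 48.1 ± 7.28 CPM in *Rtel1* F/F +Cre and 44.1 ± 10.5 CPM in *Terf1* F/F +Cre cells formed a middle run in which each overlapped the next. *Rtel1* F/F +GFP cells stood below all of them at 12.0 ± 8.15 CPM. The log2 difference between CA +GFP and *Rtel1* F/F +GFP cells, neither of which had received Cre, was 3.01 ± 0.321 (SE), and 3.72 without *Rtel1* F/F +GFP replicate 1. The vector, the mutant protein and the separate culture history of the CA cells cannot be told apart in this difference.

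*Gjb5* (chr4:127354809-127358164), a beta connexin of skin and placental trophoblast, was rare in all groups. It had 1.85, 2.28 and 2.06 CPM in *Rtel1* F/F +GFP cells, 1.35, 1.32 and 1.77 CPM after Cre and 1.46, 2.55 and 2.51 CPM with TMPyP4. The +Cre libraries were all lower than the controls, while the TMPyP4 libraries lay on both sides of them. CA +GFP libraries were at 0.883, 0.841 and 0.936 CPM and CA +Cre libraries at 1.00, 1.47 and 1.62 CPM. *Terf1* F/F +GFP libraries reached 2.48, 2.80 and 2.68 CPM, and +Cre libraries 3.58, 3.03 and 4.20 CPM. In both of these lines the +Cre libraries were higher without overlap, opposite in direction to *Rtel1* F/F cells. The log2 fold changes were −0.48 ± 0.208 (SE) in *Rtel1* F/F, 0.61 ± 0.224 in CA and 0.44 ± 0.195 in *Terf1* F/F cells for Cre, and 0.085 ± 0.202 for TMPyP4. Between CA +GFP and *Rtel1* F/F +GFP cells it was −1.215 ± 0.217. The highest mean was 3.60 ± 0.590 CPM in *Terf1* F/F +Cre and the lowest 0.887 ± 0.0478 CPM in CA +GFP cells. Neighbouring groups overlapped between TMPyP4 and *Rtel1* F/F +GFP, between TMPyP4 and *Terf1* F/F +GFP and between *Rtel1* F/F +Cre and CA +Cre cells.

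**Figure D1:**
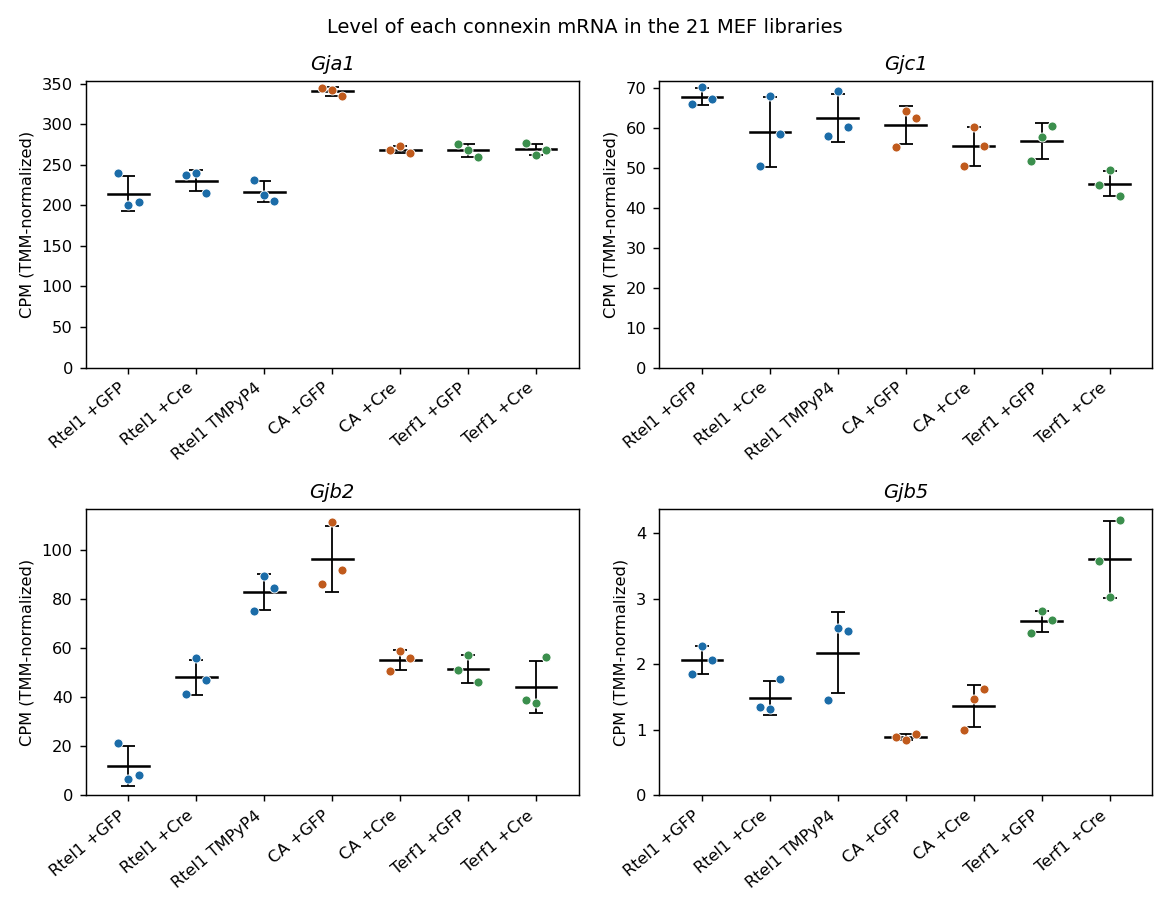
Level of *Gja1*, *Gjc1*, *Gjb2* and *Gjb5* in CPM after TMM scaling (vertical axes, from 0) in 7 groups of 3 libraries (horizontal axes). Dots are libraries in the order of replicates 1 to 3, black lines are means and whiskers are SDs, CA stands for cells with the RTEL1 C1252A/C1255A vector, and *Gjb2* is lowest in *Rtel1* F/F +GFP cells at 12.0 CPM and highest in CA +GFP cells at 96.5 CPM.

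The number of the 4 genes that did not overlap between groups in CPM is given beside the share of all tested genes. Since the genes were chosen by these levels the counts are a description. In TPM *Gjc1* also lay below its controls without overlap after *Rtel1* deletion and with TMPyP4, which the counts leave out. After *Rtel1* deletion 2 of 4 did not overlap, 1 higher and 1 lower, where 61.4% of the 13719 tested genes did not overlap. With TMPyP4 it was 1 of 4 against 57.8% of all tested genes. For Cre in CA cells it was 3 of 4, 1 higher and 2 lower, against 16.2%, and after *Terf1* deletion 2 of 4 against 26.9%. Between CA +GFP and *Rtel1* F/F +GFP cells none of the 4 genes overlapped, with 2 higher and 2 lower, against 63.6%. Between the +Cre and the TMPyP4 group of *Rtel1* F/F cells *Gjb2* alone did not overlap, against 37.8%, and its log2 difference was −0.79 ± 0.297 (SE). Libraries with the same replicate number deviated together in this comparison and in that of CA +Cre with CA +GFP, and their direction within pairs was read after the values had been seen. All 4 genes went one way in all 3 pairs in both, against 64.4% and 50.7% of all tested genes. Compared with TMPyP4, *Gja1* was higher and *Gjc1*, *Gjb2* and *Gjb5* lower in the +Cre library of every pair, and in TPM this held for 3 of the 4, *Gja1* being mixed.

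Per transcript length, the fibroblast connexin *Gja1* led in all groups, with means from 129 ± 11.0 TPM with TMPyP4 to 195 ± 5.76 TPM in CA +GFP cells. The order of *Gjc1* and *Gjb2* below it changed between groups. In *Rtel1* F/F +GFP cells *Gjc1* was at 73.0 ± 4.59 TPM and *Gjb2* at 10.7 ± 7.13 TPM, whereas *Gjb2* exceeded *Gjc1* in every TMPyP4 library, with 64.8 ± 5.83 against 59.0 ± 6.61 TPM, and in every CA +GFP library, with 72.5 ± 9.58 against 55.2 ± 3.83 TPM. *Gjb5* did not exceed 5.30 TPM in any library.

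Taken over the 20 connexin genes of the table, the summed level was 239 ± 19.1 TPM in *Rtel1* F/F +GFP cells, 234 ± 25.5 TPM after Cre and 262 TPM with TMPyP4 (245.6 to 275.4 TPM), and these overlapped in TPM. Compared with TMPyP4, the sum was lower in the +Cre library of every same-numbered pair (223.8 and 263.8, 262.8 and 275.4, 214.9 and 245.6 TPM, +Cre first). Within that sum the share of *Gjb2* was 7.26, 2.57 and 3.20% in *Rtel1* F/F controls, 13.9, 16.9 and 15.8% after Cre and 22.6, 25.8 and 25.9% with TMPyP4. The share of *Gjc1* moved the other way, from 26.9, 33.4 and 31.8% to 20.5, 24.8 and 23.9% after Cre and 24.2% at most with TMPyP4. That of *Gja1* was 61.9, 60 and 60.6% in the controls and lower with TMPyP4, at 53.1, 46.9 and 48%. After Cre it overlapped the controls, at 60.5, 55.1 and 54.9%. In CA cells the sum was 325.6, 342.1 and 321 TPM before and 254.2, 261.5 and 244.5 TPM after Cre, without overlap, while the mean share of *Gja1* was 59.2% and 60.5%. The share of *Gjb2* was lower after Cre there, at 15.4, 16.9 and 16.6% against 20.2, 24.4 and 21.2%. That of *Gjc1* was higher, at 18.5, 20.8 and 19.9% against 15.6, 17 and 17.6%. Its TPM, however, was lower in the CA +Cre library of every same-numbered pair, so the share rose within a smaller sum. In *Terf1* F/F cells the sum was 327 ± 6.79 TPM before and 308 ± 15.1 TPM after Cre. The 4 genes together held between 95.45 and 98.75% of the connexin TPM in libraries of the *Rtel1* F/F and CA cells, and between 85.82 and 88.94% in those of *Terf1* F/F cells.

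**Figure D2:**
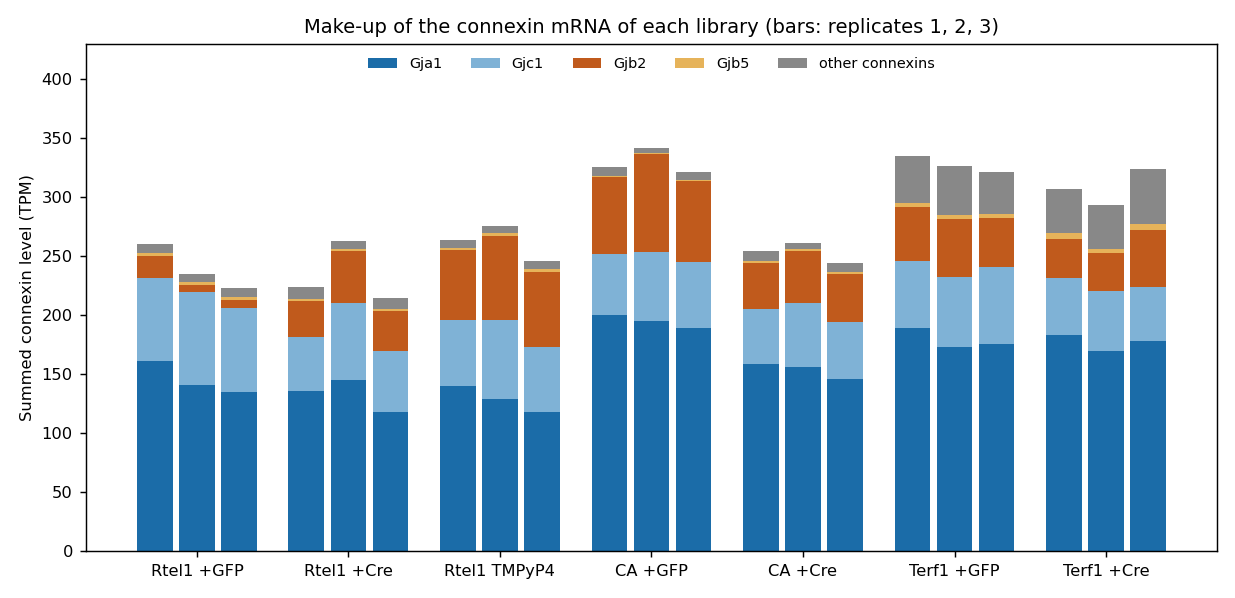
Summed connexin level in TPM (vertical axis, from 0) of each of the 21 libraries (bars, replicates 1 to 3 of each group from left to right), divided by gene. The *Gjb2* segment is smallest in *Rtel1* F/F +GFP libraries, at 2.57 to 7.26% of the sum.

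TPM and CPM differed in scale between the *Rtel1* F/F +GFP libraries and the +Cre, TMPyP4 and CA +GFP libraries compared with them. Over genes averaging 1 CPM or more, the median log2 fold change in TPM was 0.24 lower than in CPM after *Rtel1* deletion, 0.19 lower with TMPyP4 and 0.25 lower between CA +GFP and *Rtel1* F/F +GFP cells. The direction of *Gja1* depended on this scale, with −0.13 after *Rtel1* deletion and −0.175 with TMPyP4 in TPM, as did that of *Gjb5* with TMPyP4, at −0.13 in TPM. Relative to the median shift these became 0.11, 0.018 and 0.066. *Gjb2* was at 1.77 and 2.60 in TPM, 2.01 and 2.79 relative to the shift. Taking out the shift, here and for the sums below, brings a typical gene back to its CPM value by construction. It therefore does not decide between the scales. The overlap of *Gjc1* with its controls was present in CPM and absent in TPM in both treated groups. The overlap of the connexin sums depended on the scale too, as a calculation added after the values were seen showed. Less the shift, the sum was 280.8 to 314.9 TPM with TMPyP4, above the 222.7 to 260.1 TPM of the controls, and 253.8 to 310.3 TPM after *Rtel1* deletion, still overlapping them.

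The summed level of fibroblast markers was lower in both treated groups of *Rtel1* F/F cells in which *Gjb2* was higher. The 10 fibroblast markers were all detected, *Vim* being the most abundant over all libraries and *Col1a2* in *Rtel1* F/F +GFP cells, and their summed level was 8098, 7849 and 7312 TPM in *Rtel1* F/F +GFP libraries, 4035, 3199 and 3546 TPM after Cre and 5450, 4127 and 4360 TPM with TMPyP4. It was 3474 to 4957 TPM in CA +GFP and 3009 to 4543 TPM in CA +Cre libraries, which overlapped although the +Cre library was lower in each of the 3 same-numbered pairs (4957 and 4543, 3474 and 3009, 3802 and 3069 TPM), and 8936 to 12190 TPM in *Terf1* F/F libraries. After *Rtel1* deletion 6 of the 10 fell and 2 rose in edgeR's quasi-likelihood test at a Benjamini-Hochberg adjusted p of at most 0.01, where 43% of all tested genes were called. With TMPyP4 6 fell and none rose, against 30%, and between CA +GFP and *Rtel1* F/F +GFP cells 6 were lower and 2 higher, against 44.7%. For Cre 1 of 10 fell in CA cells and 1 of 10 in *Terf1* F/F cells, against 1.09% and 3.42%. The 14 markers of keratinocytes and other epithelia, tissues in which *Gjb2* and *Gjb5* are at home, summed to between 3.74 and 14.84 TPM over all libraries. *Krt19* was the most abundant of them over all libraries and *Dsg3* had no count in any library. The epithelial sum was 4.01 to 4.57 TPM in *Rtel1* F/F +GFP, 7.15 to 10.12 TPM in +Cre and 4.43 to 5.97 TPM in TMPyP4-treated libraries. It was 7 to 10.71 TPM in CA +GFP and 9.54 to 14.84 TPM in CA +Cre libraries, where *Gjb2* fell, and 3.74 to 4.95 TPM and 6.29 to 8.26 TPM in *Terf1* F/F +GFP and +Cre libraries. In CA cells the epithelial sum was higher in the +Cre library of every same-numbered pair (10.71 and 14.84, 7 and 9.54, 8.37 and 11.72 TPM). Of the 7 epithelial markers tested 2 rose and 2 fell after *Rtel1* deletion, 1 rose and 2 fell with TMPyP4, and 3 were higher and 2 lower in CA +GFP than in *Rtel1* F/F +GFP cells. In all 3 comparisons *Krt19* was higher (log2 fold changes 2.81, 1.995 and 2.96) and the keratinocyte factor *Trp63*, named after its values were seen, lower (−4.26, −2.60 and −1.85). None of the 7 was called for Cre in CA or *Terf1* F/F cells. Endothelial markers, led over all libraries by *Kdr*, summed to at most 1.71 TPM, blood cell markers, led by *Cd68*, to at most 12.16 TPM with *Adgre1* at 0, and Schwann cell and neural markers, led by *Tubb3*, to at most 27.19 TPM. Muscle markers were nearly all *Acta2*, with *Myod1* at 0, and their sum was 349.6 to 411 TPM in *Rtel1* F/F +GFP, 362 to 389.2 TPM in +Cre and 844.9 to 915.1 TPM in TMPyP4-treated libraries. It was 551.3 to 604.5 TPM in CA +GFP, 379.3 to 436.5 TPM in CA +Cre and 1421 to 1832 TPM in *Terf1* F/F libraries. The part of these markers in the connexin levels was not tested. In such bulk libraries fewer cells that express a gene and less RNA per cell cannot be told apart.

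*Gja4* and *Gjb6* were among the other connexins that passed the filter on low counts, and since their levels were not used to choose the 4 genes above, their tests are given. *Gja4*, an alpha connexin of arterial endothelium (chr4:127311420-127314039), had 1.69 to 4.23 CPM in *Rtel1* F/F and CA libraries and 0.223 to 0.506 CPM in *Terf1* F/F libraries, and was called in no comparison. Its log2 fold change was 0.28 ± 0.316 for *Rtel1* deletion and −0.22 ± 0.323 for TMPyP4. It was 0.078 ± 0.313 for Cre in CA cells and −0.12 ± 0.496 for Cre in *Terf1* F/F cells. The sign of these Cre effects turned with a library left out of the unpaired fit (−0.143 to 0.314 and −0.362 to 0.196). In CA cells *Gja4* was slightly higher in the +Cre library of every same-numbered pair (4.13 and 4.23, 2.12 and 2.16, 3.15 and 3.54 CPM).

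*Gjb6*, a beta connexin next to *Gjb2* on chromosome 14 (chr14:57123301-57133611) that forms mixed channels with it in the cochlea, was near the limit of detection. It had 1, 2 and 2 counts in *Rtel1* F/F +GFP, 8, 7 and 4 counts in +Cre and 4, 16 and 8 counts in TMPyP4-treated libraries. *Gjb6* passed the threshold with TMPyP4 (log2 fold change 2.69 ± 0.757, higher in 3 of 3 libraries, edgeR adjusted p = 0.00912), where 30% of all tested genes were called. Under 7 of 10 alternatives it no longer passed, namely with DESeq2, with the replicate block and without any of the 3 controls or TMPyP4 replicate 2 or 3, with adjusted p-values up to 0.0694. After *Rtel1* deletion it was at 2.09 ± 0.816 (edgeR adjusted p = 0.0395). *Gjb6* was not called for Cre in CA (0.18 ± 0.573, from −0.267 to 0.918 with a library left out) or *Terf1* F/F cells (1.88 ± 1.96), and the latter had 1 count in 1 library and none in the other 5.

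*Gjb1*, *Gjd2* and *Gjd3* had no count in any library. *Gja5*, named after its values were seen, had 7, 8 and 17 counts in *Rtel1* F/F +GFP and 2, 2 and 4 counts in TMPyP4-treated libraries. It had no count in the *Rtel1* F/F +Cre and CA libraries, and 3, 2 and 2 counts in *Terf1* F/F +GFP and 4, 2 and 1 counts in *Terf1* F/F +Cre libraries. It was not tested.

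*Panx1*, the pannexin of most tissues, was the only one of 3 pannexins that passed the filter. It had 13.2, 13.7 and 13.8 CPM in *Rtel1* F/F +GFP, 8.46, 9.26 and 9.42 CPM in +Cre and 8.24, 9.08 and 9.48 CPM in TMPyP4-treated libraries. All 6 treated libraries lay below the controls. *Panx1* fell after *Rtel1* deletion (log2 fold change −0.58 ± 0.0762, edgeR adjusted p = 4.5e-06) and with TMPyP4 (−0.60 ± 0.0763, edgeR adjusted p = 8.63e-06). For Cre it was at −0.023 ± 0.0760 in CA and −0.076 ± 0.0755 in *Terf1* F/F cells, and its Cre effect in *Rtel1* F/F cells was lower than in CA (−0.56, edgeR adjusted p = 0.000541) and *Terf1* F/F cells (−0.51, edgeR adjusted p = 0.000976). In CA +GFP cells it was lower than in *Rtel1* F/F +GFP cells by −0.31 ± 0.0756 (edgeR adjusted p = 0.00193), a call that 6 of 11 alternatives ended, among them the fits without *Rtel1* F/F +GFP replicate 2 or 3 or CA +GFP replicate 1 or 3.

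Gap junction plaques are held by scaffold proteins and need cell adhesion to form. Of 15 such partners 14 were tested, and 8 were called after *Rtel1* deletion, 5 up and 3 down, and likewise 8 with TMPyP4, 5 up and 3 down, with both comparisons set against the same +GFP libraries. Of all tested genes 43% and 30% were called in these comparisons. The median log2 fold change of the 14 partners was 0.01 and −0.069, where that of all tested genes was −0.034 and −0.01. *Cdh2*, the N-cadherin of fibroblast contacts, rose from 51.2 ± 10.2 to 188 ± 9.09 CPM after *Rtel1* deletion (log2 fold change 1.88 ± 0.0991, 3 of 3 libraries, edgeR adjusted p = 8.89e-11). With TMPyP4 it rose to 157 ± 2.18 CPM (1.615 ± 0.0984, 3 of 3 libraries, edgeR adjusted p = 3.08e-09). *Ezr*, the membrane-cytoskeleton linker ezrin, rose by 0.85 ± 0.102 after *Rtel1* deletion (edgeR adjusted p = 1.79e-06), and *Cav1*, which coats caveolae, by 0.60 ± 0.0916 with TMPyP4 (edgeR adjusted p = 5.33e-05). *Nov*, a matricellular protein that binds the tail of the *Gja1* product, was at 88.3 ± 35.4 CPM in *Rtel1* F/F +GFP cells, 13.85 ± 0.481 CPM after Cre and 31.8 ± 1.25 CPM with TMPyP4. Its log2 fold changes were −2.67 ± 0.218 (edgeR adjusted p = 2.69e-08) and −1.47 ± 0.208 (edgeR adjusted p = 2.77e-05), the latter call being lost in a fit of these groups alone (0.0118). *Ctnnb1*, β-catenin, was called at −0.19 ± 0.0545 and −0.21 ± 0.0545, with edgeR adjusted p-values of 0.00565 and 0.00457. These calls were ended by 7 and 8 of 11 alternatives, among them the fits without +GFP replicate 2 or 3, without +Cre replicate 1 or 3 and without any of the TMPyP4 libraries. Its Cre effect did not differ at the threshold from that in CA (−0.19, edgeR adjusted p = 0.0663) or *Terf1* F/F cells (−0.081, edgeR adjusted p = 0.415). In fits without a replicate block none of the 14 partners was called by edgeR for Cre in CA or *Terf1* F/F cells. At an unadjusted p under 0.05 there were 4 and 3, and DESeq2 called 1 and 0. In these 2 comparisons 1.09 and 3.42% of all tested genes were called by edgeR, and 1950 and 2369 of the 13719 had an unadjusted p under 0.05. Between CA +GFP and *Rtel1* F/F +GFP cells 7 of the 14 were called, against 44.7% of all tested genes, and between the +Cre and the TMPyP4 group 4 of 14, against 15.2%. In the difference of Cre effects between *Rtel1* F/F and CA cells 6 of 14 were called, against 25.1%, and in that between *Rtel1* F/F and *Terf1* F/F cells 6 of 14, against 30.2%.

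**Figure D3:**
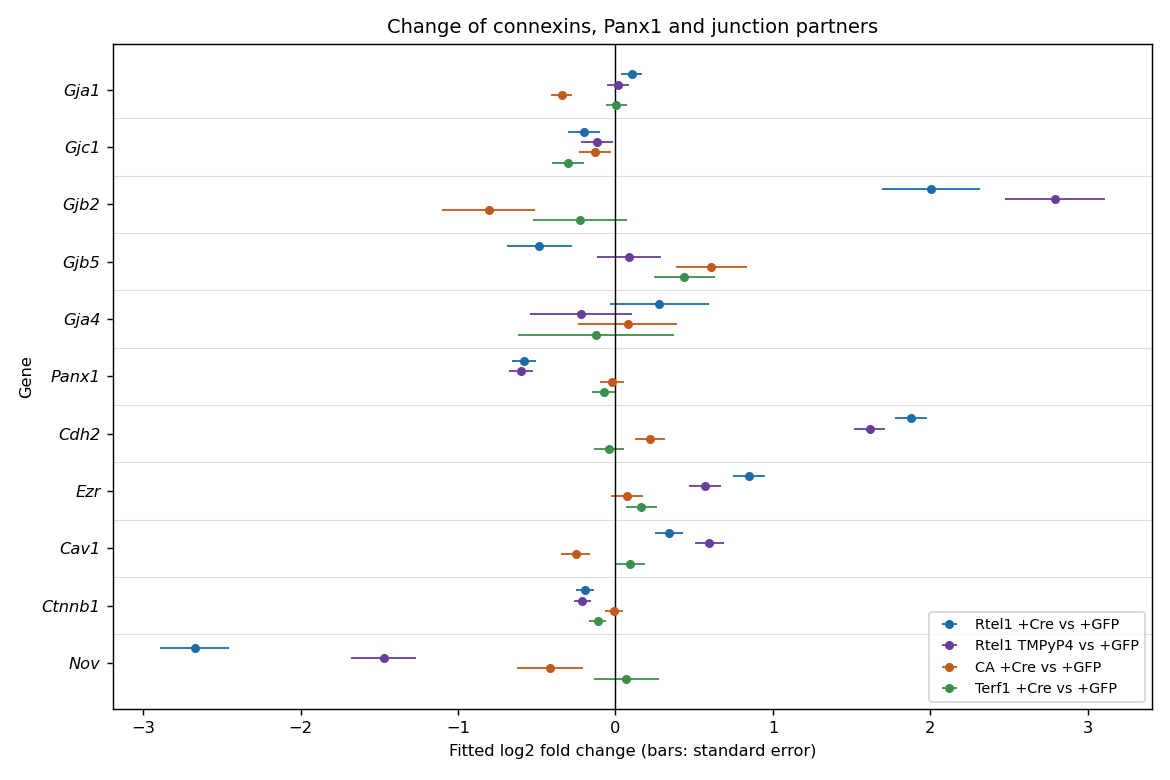
Fitted log2 fold change (horizontal axis, dots, with standard errors as bars) of 11 genes (vertical axis) in 4 comparisons, where CA stands for cells with the RTEL1 C1252A/C1255A vector and the *Rtel1* F/F +Cre and TMPyP4 groups share their +GFP libraries. *Gjb2* lies at 2.00 and 2.79 in the comparisons with *Rtel1* F/F +GFP cells and below 0 in the other 2, and *Gja1* and *Gjc1* lie between −0.34 and 0.10 in all 4, the sign of *Gja1* in the first pair depending on the scale.

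Connexins turn over within hours, and kinases and sorting proteins set how many channels stay at the membrane. Of 16 genes for such steps, all tested, 2 rose and 2 fell after *Rtel1* deletion and 2 rose with TMPyP4, where 43% and 30% of all tested genes were called. *Prkca*, a protein kinase C that phosphorylates the *Gja1* product, rose by 0.60 ± 0.0878 after *Rtel1* deletion (3 of 3 libraries, edgeR adjusted p = 1.54e-05) and by 0.43 ± 0.0877 with TMPyP4 (3 of 3 libraries, edgeR adjusted p = 0.000694). The mitotic kinase *Cdk1* rose by 0.40 ± 0.0632 after *Rtel1* deletion (edgeR adjusted p = 3.44e-05). The Cre effect on *Cdk1* exceeded that in CA cells by 0.27 (edgeR adjusted p = 0.0235) and that in *Terf1* F/F cells by 0.23 (edgeR adjusted p = 0.0451), neither at the threshold. *Mapk3*, which encodes ERK1, and the protein kinase C gene *Prkce* were at −0.65 ± 0.0770 (edgeR adjusted p = 1.37e-06) and −0.57 ± 0.101 (edgeR adjusted p = 0.000126). *Tsg101*, an ESCRT component that sorts ubiquitinated proteins for degradation, rose by 0.33 ± 0.0817 with TMPyP4 (edgeR adjusted p = 0.00311). Without *Rtel1* F/F +GFP replicate 2 or replicate 3 both TMPyP4 calls were lost, with adjusted p-values of 0.0182 and 0.0161 for *Prkca* and up to 0.0596 for *Tsg101*. That of *Tsg101* was also lost without TMPyP4 replicate 2 or 3. For Cre in CA or *Terf1* F/F cells none of the 16 was called by edgeR or DESeq2 without a replicate block. In edgeR 3 and 4 had an unadjusted p under 0.05. Of all 13719 tested genes 1.09 and 3.42% were called there by edgeR, and 1950 and 2369 genes had an unadjusted p under 0.05.

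Of 15 transcription factors known to act on connexin promoters 13 were tested, and 1 rose and 2 fell after *Rtel1* deletion, against 43% of all tested genes called. *Fosl1*, an AP-1 subunit, rose from 28.6 ± 8.88 to 85.2 ± 17.4 CPM (log2 fold change 1.58 ± 0.245, 3 of 3 libraries, edgeR adjusted p = 4.25e-05). *Fos*, another AP-1 subunit, fell from 22.3 ± 5.03 to 6.42 ± 1.12 CPM (−1.80 ± 0.248, 3 of 3 libraries, edgeR adjusted p = 1.01e-05), and *Klf4*, a zinc finger factor of epithelia, was at −1.28 ± 0.239 (edgeR adjusted p = 0.00023). With TMPyP4, against 30% of all tested genes called, 3 of the 13 fell and none rose, *Fos* by −1.37 ± 0.244 (edgeR adjusted p = 0.000254) and *Tbx3*, a T-box repressor, by −0.54 ± 0.128 (edgeR adjusted p = 0.00253). With a library left out 1 or 2 of the 13 were called, and with DESeq2 2. The call of *Tbx3* was lost without TMPyP4 replicate 2 or 3, with adjusted p-values up to 0.0161. For Cre in CA or *Terf1* F/F cells none of the 13 was called by edgeR or DESeq2 without a replicate block. In edgeR 1 and 2 had an unadjusted p under 0.05. Among all 13719 tested genes edgeR called 1.09 and 3.42% there, and 1950 and 2369 genes had an unadjusted p under 0.05.

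Across the 21 libraries the Pearson correlation of log2 CPM was 0.55 between *Gjb2* and *Gja1* and between −0.433 and −0.222 for the other 5 pairs of the 4 connexins (n = 21 libraries, which share groups and lines). By Spearman's rank correlation it was 0.41 and between −0.478 and 0.062, the last for *Gjb2* and *Gjc1*, whose sign turned with the measure. Of 10238 genes averaging 5 CPM or more, those most like *Gjb2* were *Aatf* (r = 0.965), *Nedd4l* (r = 0.947) and *Hbs1l* (r = 0.943). Without the 3 *Rtel1* F/F +GFP libraries these values were 0.831, 0.923 and 0.858 (n = 18). *Nedd4l*, a ubiquitin ligase, was at 27.2 ± 4.72 CPM in *Rtel1* F/F +GFP, 36.9 ± 1.03 CPM in +Cre, 44.4 ± 2.06 CPM in TMPyP4-treated and 48.3 ± 1.69 CPM in CA +GFP cells. It was at 37.4 ± 1.07 CPM in CA +Cre, 35.5 ± 1.37 CPM in *Terf1* F/F +GFP and 35.2 ± 0.477 CPM in *Terf1* F/F +Cre cells. The genes most like *Gja1* were *Nrp1* (r = 0.877), *Slc30a4* (r = 0.857) and *Nt5e* (r = 0.845). For *Gjc1* they were *Tbc1d14* (r = 0.913), *Fnbp1l* (r = 0.909) and *Neil3* (r = 0.902), and for *Gjb5*, compared with 10239 genes, *Sil1* (r = 0.917), *Tmbim1* (r = 0.915) and *Serhl* (r = 0.914).

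Because TMPyP4 binds G4s, the 250 bases before the start of each gene were searched on both strands for 4 runs of at least 3 G spaced by 1 to 7 bases, in RefSeq promoter sequences of GRCm38.p6 that held 3 of the 4 genes (*Gja1*, *Gjb2* and *Gjb5*). The pattern was present upstream of *Gjb2*, in a stretch of 30 bases between 223 and 194 bases before the start on the strand of the gene, and in 16.7% of all 32851 promoters. It was not found in the window of *Gja1* or *Gjb5*. The *Gjb2* sequence is shown since this gene had the largest change with TMPyP4 among the 4, at chr14:57104703-57104952 on the minus strand, 5′ to 3′ with the G-run stretch in capitals.
*Gjb2*: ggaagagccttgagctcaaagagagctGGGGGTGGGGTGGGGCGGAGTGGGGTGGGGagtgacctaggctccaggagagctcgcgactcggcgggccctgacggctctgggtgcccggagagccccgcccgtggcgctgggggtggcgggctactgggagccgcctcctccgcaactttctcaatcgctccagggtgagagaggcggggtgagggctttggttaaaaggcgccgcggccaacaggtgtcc
The letters GGGCGG, bound by Sp1 and related factors and also searched on both strands, occurred at 2 places in this window. The place on the strand of the gene lay inside the G-run stretch. The other was on the opposite strand and reads CCGCCC in the sequence shown. The letters occurred in 32.7% of all promoters. The AP-1 letters TGANTCA, present in 6.75% of all promoters, occurred upstream of *Gja1*, between 19 and 13 bases before its start, and are in capitals in its sequence (chr10:56377050-56377299, plus strand), shown since *Fos* and *Fosl1* changed while *Gja1* overlapped its controls.
*Gja1*: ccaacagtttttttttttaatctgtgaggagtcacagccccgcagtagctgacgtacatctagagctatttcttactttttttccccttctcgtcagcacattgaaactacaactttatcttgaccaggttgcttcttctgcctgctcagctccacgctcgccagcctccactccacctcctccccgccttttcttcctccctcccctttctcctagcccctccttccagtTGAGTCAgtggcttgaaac
Neither GGGCGG nor TGANTCA was found in the *Gjb5* window. These matches describe the letters of the sequence, and whether they act on the connexin genes in these cells was not tested.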

How the data were processed

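RNA-seq was done in 21 MEF libraries, and groups were taken from the sample labels. Per the submitters' processing notes and the study's methods, the authors used cutadapt 1.9.1 for trimming, STAR 2.5.2a for alignment to mm10 and RSEM 1.3.0 for quantification of RefSeq genes, and RSEM's expected counts and TPM per gene are what they deposited. The labels and the study's methods differ in read length and instrument. Counts, all whole, were rounded as a formality and fitted in R 4.3.3 with edgeR 4.0.16 (TMM, filterByExpr by group, robust quasi-likelihood fit of all libraries with 14 residual degrees of freedom, two-sided tests, Benjamini-Hochberg adjustment over 13719 genes, threshold 0.01). The script was tested on simulated data. Figures were drawn in Python 3.11.15. Log2 CPM used a prior count of 2, and SEs were derived from the log2 fold change and its F statistic.

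The 4 genes and the gene lists were chosen with earlier results of these data known. Named were the 4 genes, other connexins and pannexins that passed the filter, not all of which are shown, for each further list up to 2 rises and 2 falls per comparison with the largest change among called genes of at least 1 CPM, the 3 genes most correlated with each of the 4, and the targeted genes. As alternatives the fit was repeated in DESeq2 1.42.0, in edgeR with median-of-ratios size factors, without the filter, with only the groups compared, with replicate numbers as a block and without each library in turn, and fold changes were taken from TPM. Same-numbered libraries deviated together from their group means (11840 genes) in CA +Cre and +GFP (r = 0.864, 0.839 and 0.424). They also did in *Rtel1* F/F +Cre and TMPyP4 (r = 0.724, 0.758 and 0.409), so replicate numbers were taken to pair libraries in these comparisons. No other comparison read had such values in all 3 pairs. For *Rtel1* F/F +GFP libraries r was −0.017, 0.058 and 0.131 with +Cre and 0.024, 0.05 and 0.133 with TMPyP4. With CA +GFP it was 0.028, 0.047 and 0.109.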

Additional observations from a re-analysis of the deposited data

Results flagged for a closer look

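The effect of Cre on *Gjb2* and *Gjb5* went in opposite directions between lines, without overlap with the +GFP libraries in either line. By fitted value *Gja1* also differed in sign between *Rtel1* F/F and CA cells (0.10 and −0.34). In *Rtel1* F/F cells, however, it overlapped its controls and its sign depended on the scale. All *Rtel1* F/F +Cre libraries were higher than +GFP in *Gjb2* and all CA +Cre libraries lower, a difference of log2 effects of 2.81, and for *Gjb5*, lower in *Rtel1* F/F cells and higher in CA and *Terf1* F/F cells, the differences were −1.09 and −0.92. These 3 differences were not tested, since the levels were known when the genes were chosen.

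Among the other named genes the Cre effect in *Rtel1* F/F cells differed from that in another line in edgeR's interaction contrast at the threshold of 0.01. Compared with CA cells the difference of log2 effects was −0.56 for *Panx1*, 1.66 for *Cdh2*, 0.775 for *Ezr*, −2.255 for *Nov*, 0.61 for *Prkca*, −0.51 for *Mapk3*, 1.43 for *Fosl1* and −1.79 for *Fos*. Compared with *Terf1* F/F cells it was −0.51 for *Panx1*, 1.92 for *Cdh2*, 0.68 for *Ezr*, −2.74 for *Nov*, 0.54 for *Prkca*, −0.48 for *Mapk3*, −0.82 for *Prkce*, −1.74 for *Fos* and −1.89 for *Klf4*. The adjusted p-values ran from 1.13e-08 for *Cdh2* against *Terf1* F/F cells to 0.00341 for *Fosl1* against CA cells.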

How the results depend on the processing

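Of 288 recomputed fold changes of the 4 connexins, 274 stayed within 1 replicate SD (log2 CPM) of the reported value. Many of these fits left out 1 of 3 libraries, which moves a mean of log2 CPM by less than that SD. For those fits the outcome was largely fixed in advance, so the count does not measure stability. The exceptions were found in TPM and without single libraries. In TPM the log2 fold change after *Rtel1* deletion was −0.73 for *Gjb5*, −0.43 for *Gjc1* and −0.13 for *Gja1*, which turned its sign. With TMPyP4 it was −0.31 for *Gjc1* and −0.175 for *Gja1*, again of the other sign, and between CA +GFP and *Rtel1* F/F +GFP cells −1.47 for *Gjb5*, −0.40 for *Gjc1* and 0.42 for *Gja1*. The median of all genes moved by a similar amount in these 3 comparisons, as given above. With each library left out in turn, *Gjb2* ran from 1.73 to 2.71 after *Rtel1* deletion, from 2.48 to 3.50 with TMPyP4 and from 2.74 to 3.72 between the +GFP groups, the highest value each time without *Rtel1* F/F +GFP replicate 1. *Gjc1* ran from −0.19 to −0.068 between the +GFP groups, highest without CA +GFP replicate 1, and *Gja1* from −0.37 to −0.33 for Cre in CA cells and from 0.051 to 0.18 between *Rtel1* F/F +Cre and TMPyP4. Within 1 SD the sign also turned for *Gjb5* with TMPyP4 (−0.127 in TPM, down to −0.042 without a library), for *Gja1* with TMPyP4 (down to −0.045 without a library) and for Cre in *Terf1* F/F cells (from −0.022 to 0.027 without a library, −0.02 in TPM), and for *Gjc1* between *Rtel1* F/F +Cre and TMPyP4 (up to 0.015 without a library). For *Gja1* with Cre in *Terf1* F/F cells it turned as well with DESeq2 (−0.002), with median-of-ratios size factors (−0.001) and without the filter (−0.006). The cause was not tested.

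The 150 genes called for Cre in CA cells became 337 with DESeq2 and 0 in a fit of these groups alone, where 1256 genes had an unadjusted p under 0.05, and 52 to 149 with a library left out (lowest without CA +GFP replicate 1 or 3 or CA +Cre replicate 2 or 3). Fits of only the groups compared also gave 933 in place of 2088 calls between *Rtel1* F/F +Cre and TMPyP4 and 2195 in place of 3450 for the difference of Cre effects between *Rtel1* F/F and CA cells. With a library left out, calls with TMPyP4 ran from 2466 to 4110 (lowest without *Rtel1* F/F +GFP replicate 2 or 3) and those after *Terf1* deletion from 282 to 377 (lowest without +GFP replicate 2 or 3 or +Cre replicate 1 or 2). Fits with fewer libraries estimate the spread from fewer values.

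With replicate number as a block, 7172 genes were called after *Rtel1* deletion, 5434 with TMPyP4, 215 for Cre in CA and 642 in *Terf1* F/F cells. The block moved no count of calls over all genes by more than 1.5 times. Calls among the junction partners, kinases and sorting genes, transcription factors and markers were not counted with the block for Cre in CA or *Terf1* F/F cells. Of the transcription factors 5 in place of 3 were called after *Rtel1* deletion, and *Gjb6* with TMPyP4 was lost (adjusted p from 0.00702 to 0.0694 over its alternatives).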

Other observations

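The replicate number went with the level of several connexins in *Rtel1* F/F and CA cells, a pattern noticed after the values were seen. In each of the 5 groups of these cells replicate 2 had the highest *Gjc1* level of its group, with 70.4, 67.9, 69.3, 64.2 and 60.3 CPM. Replicate 2 also had the lowest *Gja4* level in each, at 2.20, 1.71, 1.69, 2.12 and 2.16 CPM. *Gjb2* was lowest in replicate 2 of *Rtel1* F/F +GFP and highest in replicate 2 of the other 4 groups. No reason for this was tested.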
